A study of Arabidopsis thaliana with 12 samples.

Results

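The PHYTOCHROME INTERACTING FACTOR (PIF) genes and their relatives were examined for chromatin sites of a tagged DELLA protein in Arabidopsis inflorescences. The 10 genes were PIF1, PIF3, PIF4, PIF5, PIF6, PIF7, PIL1, HFR1, PAR1 and PAR2, out of 27444 nuclear protein-coding genes in the gene table. They were found by symbol for 7 genes and by alias for PIF1 (PIL5 in the table), PIF5 (PIL6) and PIF6 (PIL2). A peak was counted for a gene where its summit, the position of highest signal, lay inside the gene or at most 1000 bp from either end.

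PIFs are basic helix-loop-helix (bHLH) transcription factors that drive growth in darkness, shade and warmth, and light-activated phytochromes bind them and mark many of them for destruction. DELLA proteins, the nuclear repressors of gibberellin responses, bind PIF proteins and keep them from DNA, which is one way in which gibberellin and light control of elongation meet. PIL1, HFR1, PAR1 and PAR2 act mostly as brakes: HFR1, PAR1 and PAR2 are atypical members that pair with PIFs and hold them away from DNA. The data here describe where a DELLA protein was found at the genes that encode these factors, and not its contact with the proteins.

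Chromatin immunoprecipitation with sequencing (ChIP-seq) used an antibody to GFP on 3 genotypes in the Landsberg erecta (Ler) background. These were plants with the transgene pGAI:gai∆17-3xYPet and the cuc2-1 mutation (gai-YPet cuc2-1), plants with the transgene alone (gai-YPet), and Ler plants without a transgene. The transgene expresses, from the GAI promoter, a GAI protein that carries the ∆17 deletion and 3 copies of the yellow fluorescent tag YPet, and the labels name 1 transgenic line, L306. CUC2, the gene mutated in cuc2-1, encodes a NAC factor of organ boundaries. Each genotype had 2 independent biological replicates of 1.8 g of inflorescences, taken from main stems with 5 to 10 flowers after removal of open flowers and older buds. Mature plants had been kept in soil at 22 °C under long days (16 h light, 8 h dark), so the sites are averages over all cells of the young inflorescence.

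Each ChIP library had its own peak list and its own input library. The lists held 8193 and 3666 peaks for gai-YPet cuc2-1 replicates 1 and 2, 7042 and 11289 for gai-YPet, and 234 and 406 for Ler. No read totals were given in the lists, so depth is unknown. The fold enrichment of a peak and its −log10 q-value are the authors' own values. Strength is given as the fold and as the percentile of the peak within its own list by q-value, where 100 is the strongest. Because the lists differ in length and depth is unknown, neither a fold nor a percentile measures a change between lists. An exact permutation test of 2 lists against 2 cannot give a two-sided p below 0.333, so no p-value is given and each result is shown in every replicate list.

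All 10 genes had a peak in at least 1 list from tagged plants, against 33.3% of all genes, and 6 of them (PIF1, PIF4, PIF5, PIF6, PAR1 and PAR2) had one in all 4 such lists, against 9.75% of all genes. In gai-YPet cuc2-1, 6 of the 10 had a peak in both replicates, against 10.2% of all genes, and in gai-YPet 7 of the 10 did, against 18.1%. The tagged lists together held 42 peaks at the 10 genes, and the Ler lists 1. The Ler lists were far shorter, with 234 and 406 peaks over the genome, against 3666 to 11289 in the tagged lists. The 42 and the 1 therefore follow list length as well and do not measure an excess at these genes. By list, 9 and 6 of the 10 genes had a peak in gai-YPet cuc2-1 replicates 1 and 2, where 20.8% and 10.5% of all genes had one. In gai-YPet replicates 1 and 2 the counts were 7 and 10, where 18.8% and 31.9% of all genes had one. The Ler lists had a peak at 1 of the 10 genes, PIF7, against 0.244% of all genes in at least 1 Ler list. That peak was in Ler replicate 1, where 0.0510% of all genes had one, and Ler replicate 2, where 0.215% did, had none at the 10 genes. The 7 genes counted in gai-YPet include PIF7, which drops out when peaks that touch a Ler peak are removed, and 6 then remain. No share of all genes was counted for that removal.

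**Figure D1:**
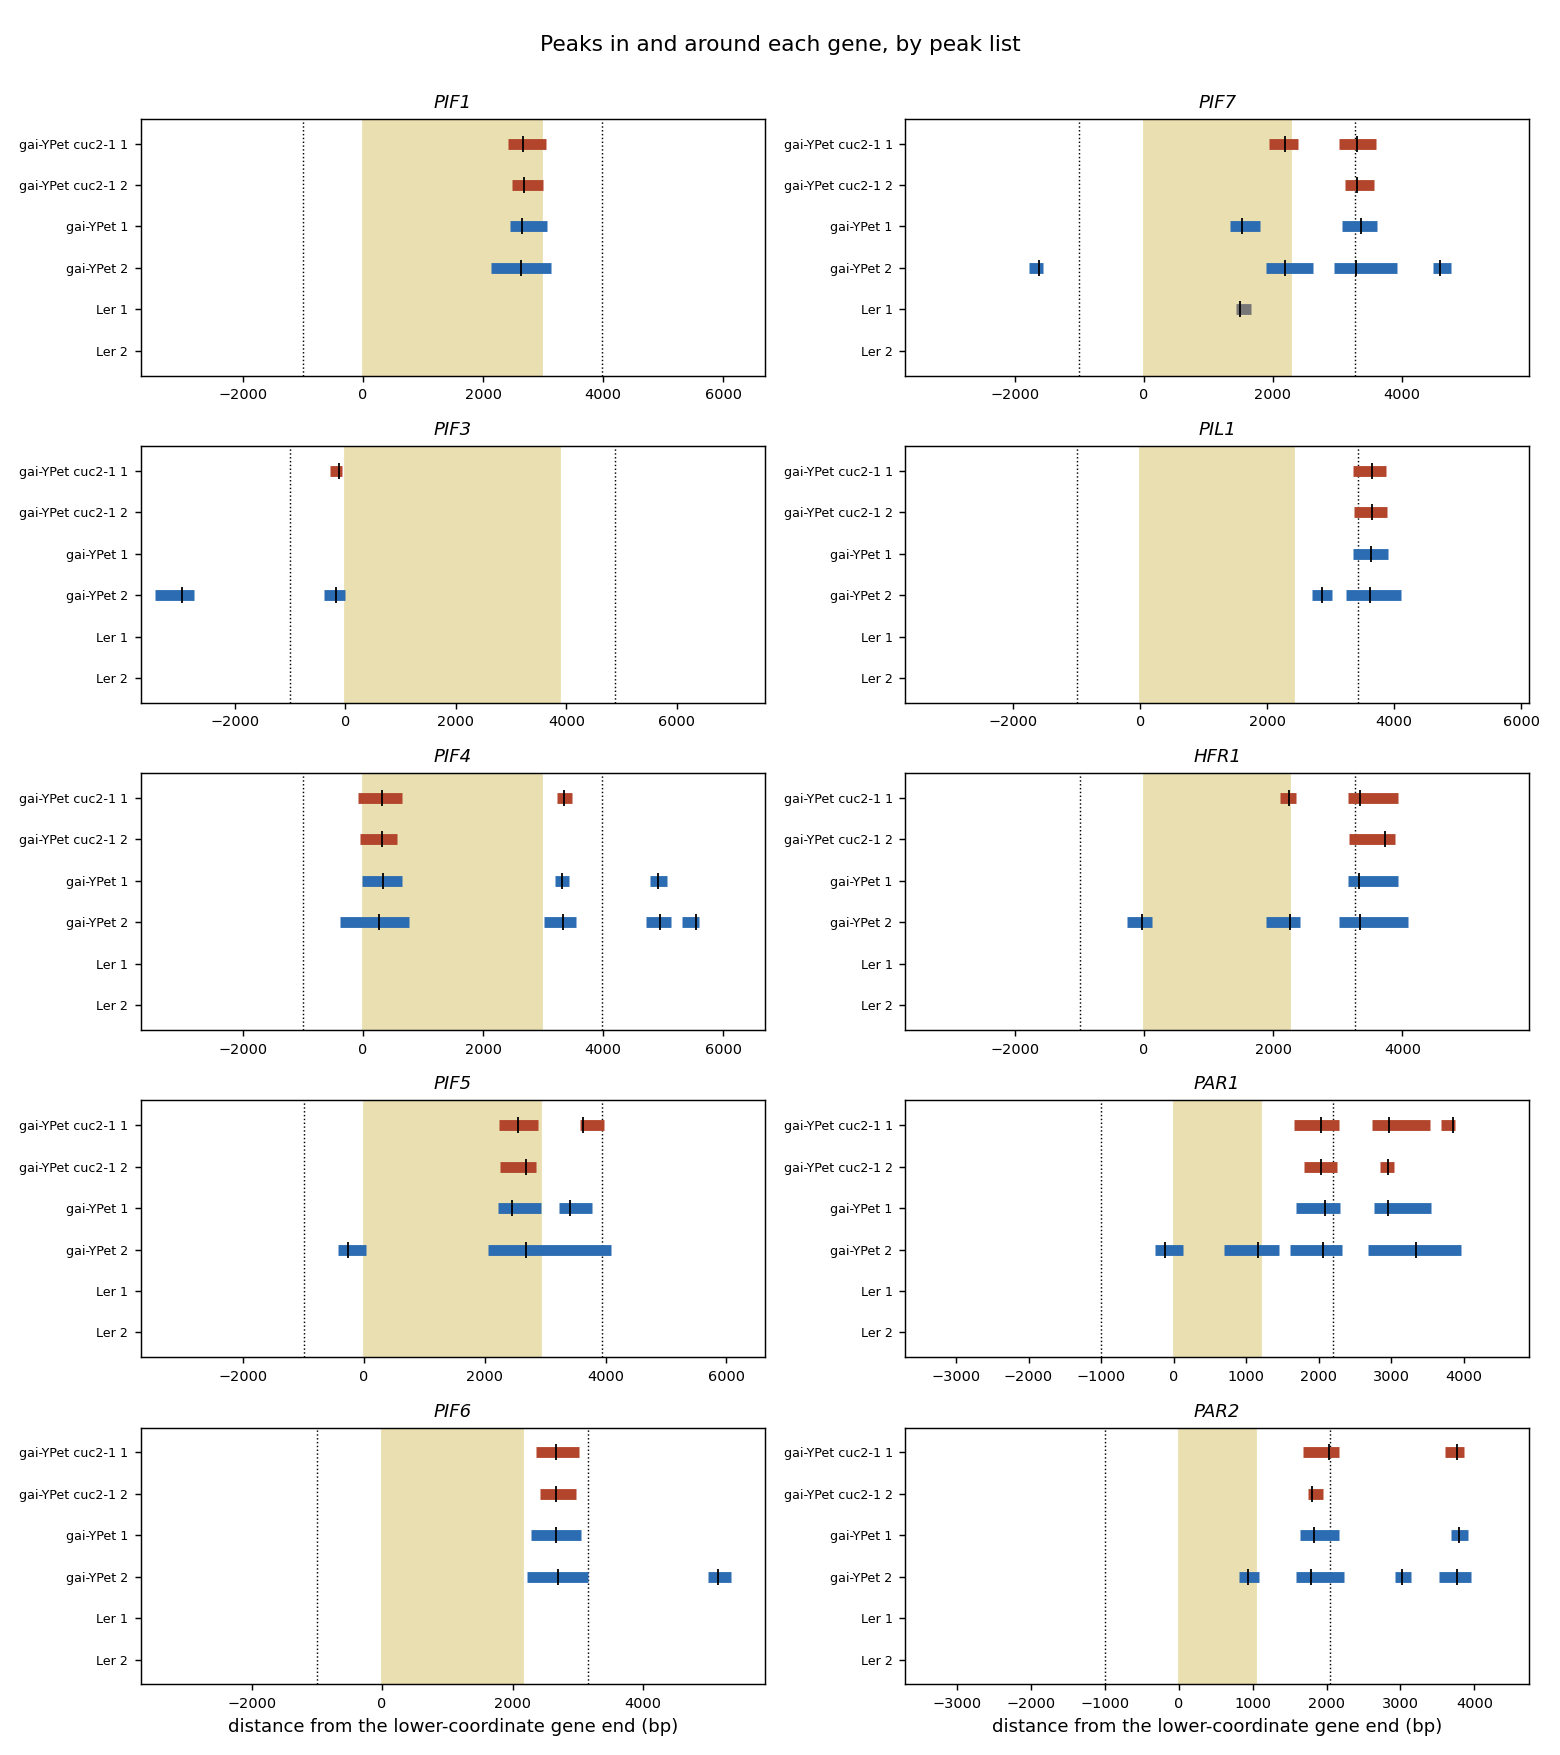
Peaks at the 10 genes, one panel per gene, with position in bp from the lower-coordinate gene end on the x axis and one row per peak list on the y axis (gai-YPet cuc2-1, gai-YPet and Ler, replicates 1 and 2). Bars are peaks (red gai-YPet cuc2-1, blue gai-YPet, grey Ler), black ticks are summits, the shaded box is the gene and dotted lines mark 1000 bp to each side; peaks with summits up to 3000 bp away are drawn. Summits line up over 35 bp at PIF1 and PIF6, and at PIF7, PIL1 and HFR1 a peak of all 4 tagged lists crosses the upper dotted line with its summit past it.

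PIF6, a little-studied PIF with a role in seed dormancy, had by far the strongest site. Its folds were 9.55 and 6.69 in gai-YPet cuc2-1 replicates 1 and 2, and 10.1 and 7.58 in gai-YPet replicates 1 and 2. Neither Ler list had a peak there. In all 4 tagged lists this peak ranked near the very top, at rank 24 of 8193 and 27 of 3666 in gai-YPet cuc2-1, and at rank 30 of 7042 and 35 of 11289 in gai-YPet. Ordered by mean percentile over replicates, PIF6 stood at position 22 of the 2799 genes with peaks in both gai-YPet cuc2-1 lists and at position 24 of 4976 such genes in gai-YPet.

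The PIF6 peaks together covered chromosome 3 from 22990771 to 22991700 (build TAIR10). The 4 summits lay within 35 bp of each other, between 22991211 and 22991246, which is 502 to 537 bp beyond the upper-coordinate end of the gene. No other protein-coding gene came within 1000 bp of these summits, and the summits lay in no annotated gene. The next protein-coding gene on that side is IAA30, an auxin response gene, 4977 bp from PIF6. The gene table gives neither strand nor exons, so upstream cannot be told from downstream here, and gene parts such as exons and untranslated regions are not given.

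PIF1, which keeps seeds from germinating in the dark, had a single site inside the gene in all 4 tagged lists. Its folds were 5.62 and 3.45 in gai-YPet cuc2-1 and 5.57 and 5.41 in gai-YPet, at percentiles of 91.2 and 76.5 and of 83.4 and 91.5. The site spanned chromosome 2 from 8706159 to 8707150, with summits 312 to 347 bp inside the upper end of the gene. These summits also agreed to within 35 bp, and no second peak lay within 3000 bp of the gene in any list.

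PIF4 and PIF5, the pair of closely related factors best known for elongation in warmth and shade, were likewise bound inside the gene in all 4 tagged lists. At PIF4 the folds were 5.19 and 2.49 in gai-YPet cuc2-1, at percentiles of 90.9 and 49.4. In gai-YPet they were 4.90 and 4.65, at percentiles of 82.2 and 88.8. The PIF4 site lay on chromosome 2 from 17885723 to 17886873, with summits 269 to 330 bp inside the lower end.

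A second PIF4 site lay beyond the opposite end of the gene, on chromosome 2 from 17889116 to 17889654. It had a fold of 2.70 in gai-YPet cuc2-1 replicate 1 and no peak in replicate 2, against folds of 3.42 and 3.37 in gai-YPet. Its summits were 323 to 359 bp outside the gene and agreed to within 36 bp. It was the weaker of the PIF4 sites in each of the 3 lists that held both, at percentiles of 51.0 in gai-YPet cuc2-1 replicate 1 and of 51.2 and 68.9 in gai-YPet.

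At PIF5 the strongest peak had folds of 3.98 and 3.67 in gai-YPet cuc2-1 and of 5.98 and 4.76 in gai-YPet. The percentiles were 79.7 and 83.0 in gai-YPet cuc2-1, and 86.9 and 90.8 in gai-YPet. The summits lay 251 to 482 bp inside the upper end of the gene and were spread over 231 bp, more loosely than at PIF1, PIF4 or PIF6. In gai-YPet replicate 2 a single peak of 2038 bp, on chromosome 3 from 21829959 to 21831996, covered the ground where gai-YPet cuc2-1 replicate 1 and gai-YPet replicate 1 each had a second, separate peak. Those second peaks had folds of 1.81 and 2.71, and the summit in gai-YPet replicate 1 fell in the long non-coding RNA gene AT3G09185. A weak peak beyond the other end, with a fold of 1.93, was found in gai-YPet replicate 2 only and lay within 1000 bp of the neighbour PAO3, a polyamine oxidase gene, as well.

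PIF7, a shade and warmth regulator, was the one gene of the 7 whose peaks in the gai-YPet replicates lay at different places. The gai-YPet replicate 1 peak lay on chromosome 5 from 24639833 to 24640288, with a fold of 4.07. It overlapped the only Ler peak at any of the 10 genes, from 24639921 to 24640158 with a fold of 2.22 in Ler replicate 1, and the summits were 21 bp apart. A second place, from 24640378 to 24641111, had a peak with a fold of 2.31 in gai-YPet cuc2-1 replicate 1 and of 2.57 in gai-YPet replicate 2. These 2 summits were 12 bp apart and 78 to 90 bp inside the upper end of the gene. The count of PIF7 in both gai-YPet lists therefore joins a peak at a place that also had one in untagged plants to a peak at another place.

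PIF3, a founding PIF that acts in seedlings in the dark, had 1 weak site. The fold was 2.34 in gai-YPet cuc2-1 replicate 1 and 2.47 in gai-YPet replicate 2, with no peak in the shorter list of either genotype. The percentiles were 35.1 in gai-YPet cuc2-1 replicate 1 and 41.9 in gai-YPet replicate 2. The site lay 119 to 175 bp beyond the lower end of the gene, on chromosome 1 from 3075389 to 3075759, with summits 56 bp apart.

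Among the brakes on PIF action, PAR1 had a strong main site and PAR2 a weak one, each beyond the upper-coordinate end of its gene. The PAR1 folds were 5.41 and 2.94 in gai-YPet cuc2-1 and 5.57 and 5.03 in gai-YPet, at percentiles of 90.8 and 63.1 and of 85.4 and 91.3. The site spanned chromosome 2 from 17838024 to 17838742, with summits 831 to 888 bp beyond the upper end of PAR1 and inside the long non-coding RNA gene AT2G09405 in all 4 lists. Gai-YPet replicate 2 had 2 further, weaker PAR1 peaks with folds of 2.84 and 2.30.

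At PAR2, the closest relative of PAR1, the folds were 3.04 and 2.10 in gai-YPet cuc2-1 and 3.40 and 2.75 in gai-YPet. The percentiles were 58.5 and 11.6 in gai-YPet cuc2-1, and 53.0 and 56.7 in gai-YPet. The site lay on chromosome 3 from 21760942 to 21761581, with summits 755 to 988 bp beyond the upper end of PAR2. The farthest, in gai-YPet cuc2-1 replicate 1, at 988 bp, was just inside the window. A further PAR2 peak, in gai-YPet replicate 2 only, lay inside the gene, with a fold of 2.03 and a percentile of 29.5. Of the 6 genes with a peak in all 4 tagged lists, PAR2 had the lowest mean percentile in both genotypes. PAR1 and PIF4 lie close together on chromosome 2 with 15 protein-coding genes between them, and PAR2 and PIF5 lie close together on chromosome 3 with 21 between them. At these distances no summit could lie within 1000 bp of both members of a pair.

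HFR1 and PIL1, both quickly induced by shade, had only weak peaks inside the window. HFR1 had a fold of 2.32 in gai-YPet cuc2-1 replicate 1 and of 2.53 in gai-YPet replicate 2, with summits 10 bp apart near the upper end of the gene. A second HFR1 peak, in gai-YPet replicate 2 only, had a fold of 1.93 and lay within 1000 bp of the neighbour GL22 as well. At PIL1 the only peak was in gai-YPet replicate 2, with a fold of 2.00 and a percentile of 16.3.

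**Figure D2:**
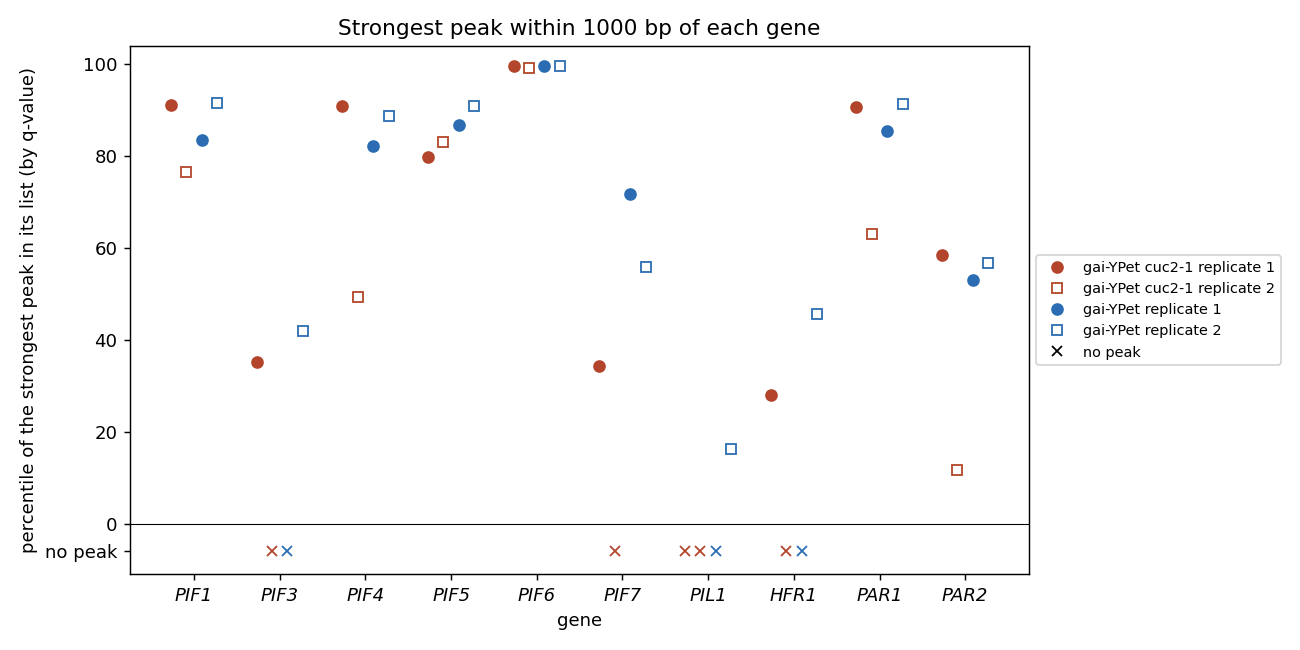
Percentile of the strongest peak within 1000 bp of each gene, by q-value within its own list, for the 10 genes on the x axis. Red symbols are gai-YPet cuc2-1 and blue symbols gai-YPet, circles are replicate 1 and squares replicate 2, and crosses mark lists with no peak; PIF6 sits between 99.3 and 99.7 in all 4 lists, whereas PIF3, PIL1 and HFR1 stay below 50 wherever they have a peak.

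The order of the genes in gai-YPet, by mean percentile over the 2 replicates, was PIF6 (99.6 ± 0.0782, SD, n = 2), PIF5 (88.8 ± 2.81), PAR1 (88.4 ± 4.12), PIF1 (87.5 ± 5.72), PIF4 (85.5 ± 4.69), PIF7 (63.9 ± 11.3) and PAR2 (54.8 ± 2.60). PIF5, PAR1, PIF1 and PIF4 overlapped in their replicate values and cannot be ordered, and PIF7 and PAR2 overlapped as well. The PIF7 mean joins peaks at different places, of which that in gai-YPet replicate 1 touched a Ler peak. Its SD is therefore not the spread of a single site. The median of these means was 87.5 for the 7 genes and 65.4 over all genes with peaks in both gai-YPet lists. In gai-YPet cuc2-1 the corresponding medians were 79.1 for 6 genes and 66.6 over all such genes. In the mutant the replicate percentiles lay far apart for PIF4 (70.1 ± 29.4), PAR1 (76.9 ± 19.6) and PAR2 (35.0 ± 33.1). They were closer together for PIF6 (99.5 ± 0.303), PIF5 (81.4 ± 2.31) and PIF1 (83.9 ± 10.4). The lists of each genotype differ in length, so all these SDs mix list length with replicate spread and do not compare the genotypes.

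A peak at percentile 80 or above in both replicates was found at 1 of the 10 genes in gai-YPet cuc2-1 (PIF6), against 2.34% of all genes. In gai-YPet it was found at 5 of the 10 (PIF1, PIF4, PIF5, PIF6 and PAR1), against 4.25% of all genes.

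The position of the strongest peak split the family. In gai-YPet cuc2-1 it lay inside the gene at 5 of 9 genes in replicate 1 and 3 of 6 in replicate 2, against 32.4% and 32.5% of all genes with a peak in those lists. In gai-YPet it lay inside at 4 of 7 and 5 of 10, against 31.0% and 33.3%. PIF1, PIF4 and PIF5 had it inside in every tagged list, and PIF6, PAR1 and PAR2 had it outside in every tagged list.

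Called peaks of gai-YPet cuc2-1 and gai-YPet were set side by side, which does not measure whether the DELLA protein needs CUC2 at these genes. No gene of the 10 had a peak in both gai-YPet lists and in neither mutant list, where 1.48% of all genes had that pattern, and none had peaks in both mutant lists only, where 0.0510% did. With all-gene shares this low, a count of 0 among 10 genes was likely beforehand, and a need for CUC2 was not tested. The mutant lists are of unlike length, and the genes without a peak in the shorter one were the weak ones. PIF3, PIF7 and HFR1, at percentiles of 28.0 to 35.1 in gai-YPet cuc2-1 replicate 1, had no peak in the shorter replicate 2, and the 6 genes at higher percentiles all had one. Over all genes, 11.7% of those below percentile 50 in replicate 1 had a peak in replicate 2, against 55.3% of those from 50 to 80, where PIF5 and PAR2 lay, and 97.2% of those at 80 or above. The gai-YPet lists, which also differ in length, gave a like pattern. PIF3, PIL1 and HFR1, at 16.3 to 45.6 in the longer gai-YPet list, had no peak in the shorter one, and the other 7 genes had one. Over all genes, a peak in the shorter list was found for 18.6% of those below 50, for 78.9% from 50 to 80, where PIF7 and PAR2 lay, and for 98.7% at 80 or above, where the other 5 lay.

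The 1000 bp limit decided how PIF7, PIL1 and HFR1 were counted, because each had a stronger peak of all 4 tagged lists with its summit outside it. None of these peaks is part of the counts above. Beyond the upper end of PIL1, the summits were 1189 to 1221 bp away, on chromosome 2 at 19299047 to 19299079. The folds were 7.93 and 5.13 in gai-YPet cuc2-1 and 8.05 and 5.04 in gai-YPet, at percentiles of 98.8 and 96.3 and of 97.5 and 96.9. These summits were nearer to another gene, 413 to 445 bp from ASY3, which acts in meiotic chromosome axes.

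Beyond the upper end of PIF7, the summits were 1016 to 1091 bp away, on chromosome 5 at 24641781 to 24641856. The folds were 4.90 and 3.41 in gai-YPet cuc2-1 and 5.81 and 6.24 in gai-YPet, and no protein-coding gene lay within 1000 bp. The next one, AT5G61280, was 1700 to 1775 bp away, so these summits were nearer to PIF7. No Ler peak lay at this place, unlike at the PIF7 peak of gai-YPet replicate 1 inside the gene. Beyond the upper end of HFR1, the summits were 1069 to 1471 bp away, with folds of 4.47 and 2.59 in gai-YPet cuc2-1 and 4.70 and 6.03 in gai-YPet. AT1G02350 was nearer to them, at 467 to 869 bp. PAR1 also had a further peak in all 4 tagged lists, 1748 to 2141 bp beyond its upper end and within 1000 bp of the kinase gene MPK20, with folds of 4.01 and 2.22 in gai-YPet cuc2-1 and 4.02 and 4.31 in gai-YPet. PIF4 had a further peak in both gai-YPet lists, with folds of 3.57 and 3.54, and none was called there in either mutant list. It lay 1922 to 1952 bp beyond the upper end and nearer to PAO2, at 464 to 494 bp. A difference between the genotypes at this place was not tested.

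With 2000 bp to each side, 9 of the 10 genes had a peak in both gai-YPet cuc2-1 lists and the same 9 in both gai-YPet lists, against 14.3% and 24.5% of all genes. PIF3 was the exception. With 500 bp to each side the counts were 3 in gai-YPet cuc2-1 and 4 in gai-YPet, against 7.53% and 13.6% of all genes, and PIF6, PAR1 and PAR2, with their main sites farther out, were not counted. With the summit inside the gene the counts were again 3 and 4, against 3.43% and 6.23% of all genes.

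**Figure D3:**
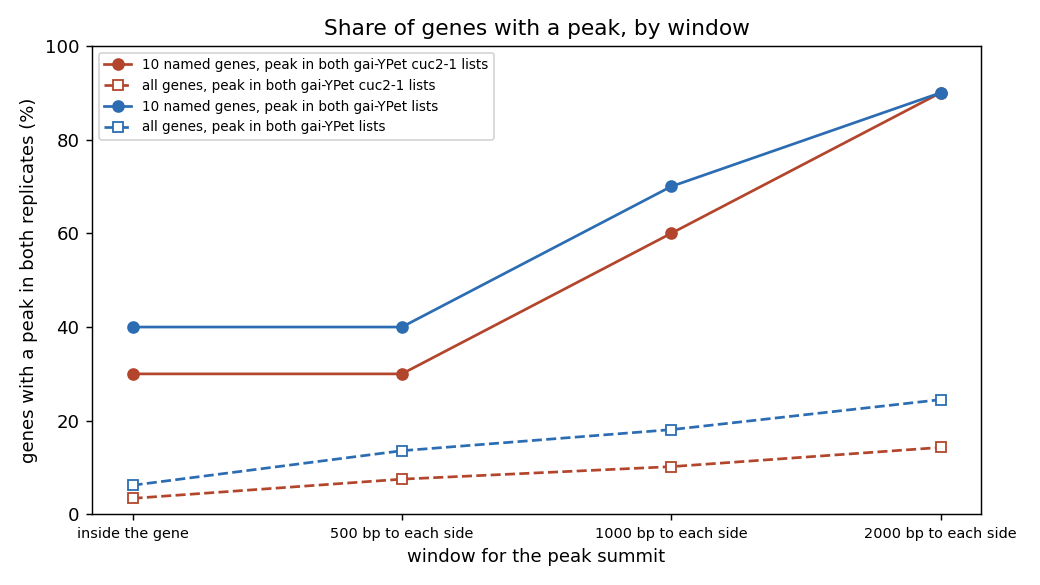
Percent of genes with a peak in both replicates (y axis) for 4 windows of the peak summit (x axis), in gai-YPet cuc2-1 (red) and gai-YPet (blue). Filled circles are the 10 PIF and related genes and open squares all 27444 genes; the 10 genes reach 90.0% in both genotypes at 2000 bp, against 14.3% and 24.5% of all genes.

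Other genes of light signalling were counted in 3 lists by the same 1000 bp rule. Of 27 light receptors and regulators, 6 had a peak in both gai-YPet cuc2-1 lists and 10 in both gai-YPet lists, against 10.2% and 18.1% of all genes. SPA4, a partner of the ubiquitin ligase COP1, was the strongest, with folds of 9.33 and 6.98 in gai-YPet cuc2-1 and 11.5 and 7.76 in gai-YPet, at percentiles of 99.4 to 99.6. PHYA and PHYB, which encode phytochromes, followed. PHYA had folds of 7.45 and 4.29 in gai-YPet cuc2-1, against 8.97 and 4.96 in gai-YPet. PHYB had folds of 6.21 and 3.61 in gai-YPet cuc2-1, against 6.69 and 4.60 in gai-YPet. The blue light receptor gene PHOT1 had folds of 6.11 and 2.96 in gai-YPet cuc2-1 and 6.20 and 5.76 in gai-YPet. COP1, CRY1 and the other phytochrome genes of the list, PHYC, PHYD and PHYE, had no peak in any tagged list. HY5 had one only in gai-YPet cuc2-1 replicate 1, with a fold of 2.92, and in gai-YPet replicate 2, with a fold of 1.82.

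Of 17 genes for partners of PIFs and HFR1, 6 had a peak in both gai-YPet cuc2-1 lists and 8 in both gai-YPet lists, against 10.2% and 18.1% of all genes. BEE2, a growth-promoting bHLH gene, had folds of 4.54 and 3.36 in gai-YPet cuc2-1 and 6.03 and 5.73 in gai-YPet. ARF6, an auxin response factor gene, had folds of 6.22 and 4.33 in gai-YPet cuc2-1 and 4.13 and 6.14 in gai-YPet. PRE6, whose product binds HFR1, and PIF8, a further PIF not among the 10 genes, had mean percentiles in gai-YPet of 75.3 and 73.2.

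Of 20 genes that PIFs are known to act on, 6 had a peak in both gai-YPet cuc2-1 lists and 8 in both gai-YPet lists, against 10.2% and 18.1% of all genes. ST2A, a sulfotransferase gene of jasmonate metabolism, had folds of 8.78 and 4.77 in gai-YPet cuc2-1 and 10.8 and 6.80 in gai-YPet. Of the 5 homeobox genes of the shade response in this list, ATHB4, HAT1, HAT2 and HAT3 had a peak in all 4 tagged lists and ATHB2 had one in gai-YPet replicate 2 only. ATHB4 had folds of 6.54 and 5.21 in gai-YPet cuc2-1 and 7.36 and 6.04 in gai-YPet, and HAT1 had 3.29 and 3.23 in gai-YPet cuc2-1 and 4.90 and 5.26 in gai-YPet. CKX5, a cytokinin oxidase gene, had folds of 4.73 and 3.66 in gai-YPet cuc2-1 and 5.62 and 3.78 in gai-YPet.

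**Figure D4:**
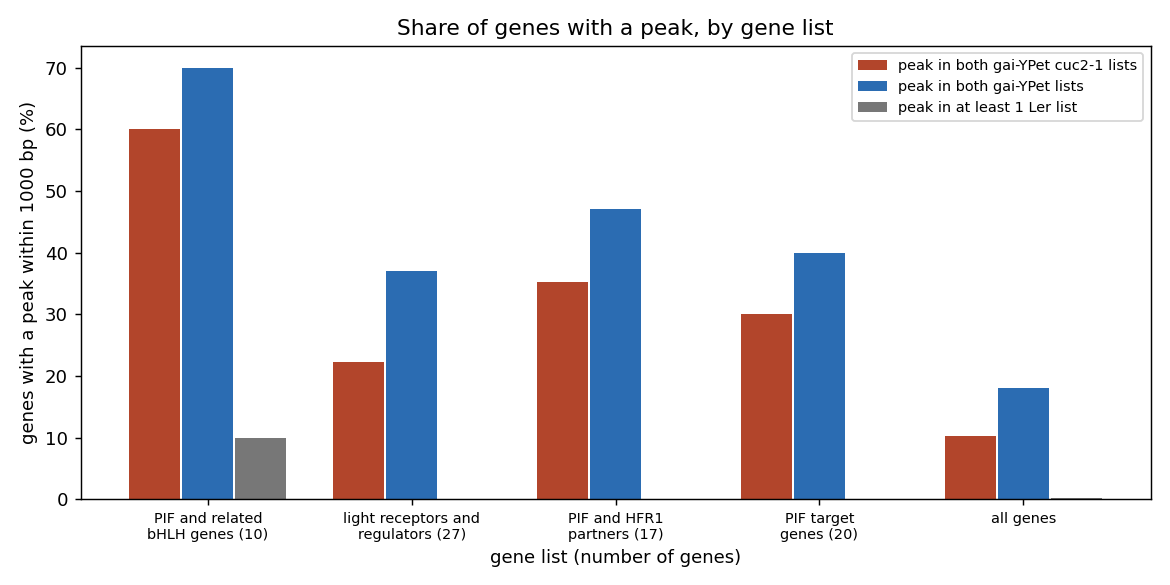
Percent of genes with a peak within 1000 bp (y axis) for the 10 PIF and related genes, the 3 other light lists and all genes (x axis, number of genes in brackets). Bars are a peak in both gai-YPet cuc2-1 lists (red), in both gai-YPet lists (blue) and in at least 1 Ler list (grey); the 10 genes stand at 60.0%, 70.0% and 10.0%, against 10.2%, 18.1% and 0.244% of all genes.

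By share, the 10 PIF and related genes stood at 60.0% in gai-YPet cuc2-1 and 70.0% in gai-YPet, against 22.2% and 37.0% of receptors and regulators, 35.3% and 47.1% of partners, and 6 and 8 of the 20 PIF targets. Over all genes the shares were 10.2% and 18.1%. None of the genes in the 3 other lists had a peak in a Ler list. The lists are short, and these shares are descriptions of them and not tests of a difference between lists.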

How the data were processed

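Per the submitters' processing notes, reads were handled with cutadapt, Bowtie2, SAMtools, MACS2 and bedtools, and the build was TAIR10, which is a Columbia genome, whereas the plants were Ler. For versions, settings and the control of peak calling, nothing is stated: they are not given in the sources used. The deposited lists, 1 per ChIP library, hold for each peak the authors' score, their fold enrichment ratio, and their −log10 of the p-value and q-value. Every list ends just above a −log10 q of 2. Decimal marks in the fold and −log10 columns deposited for replicate 2 were broken and were read as 5 decimals, and 10 times the −log10 q, cut to a whole number, then gives the score of the authors in every line of all 6 lists.

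Gene positions were those of RefSeq assembly TAIR10.1. Its nuclear positions were assumed to match TAIR10, and distances to gene ends rest on that. The 10 genes and the 3 other light lists were chosen with earlier results of these data known, and so was the percentile of 80. Named were all 10 genes, and in each other list the 4 genes with the highest mean percentile in gai-YPet. PHYC, PHYD, PHYE, COP1, HY5, CRY1, ATHB2, HAT2 and HAT3 were named after their values were seen. No genome was used here, so no sequences or motifs are shown. Alternatives covered gene windows, the stronger 50% of peaks, equal list lengths, removal of control peaks, peak overlap in place of summits, merged regions and each replicate left out. The gene assignment recovered 200 of 200 planted summits and gave the same genes as bedtools 2.31.1 in 6 of 6 lists. The software was Python 3.11.15 with pandas 2.3.3, numpy 2.4.6, matplotlib 3.10.9 and scipy 1.17.1.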

Additional observations from a re-analysis of the deposited data

How the results depend on the processing

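The number of genes with a peak in both gai-YPet cuc2-1 lists (6 of 10) was 3 with 500 bp to each side, against 7.53% of all genes. It was 3 with the summit inside the gene, against 3.43% of all genes, and 3 with the summit outside it. With mutant replicate 1 left out it was 6, against 10.5% of all genes, and with replicate 2 left out 9, against 20.8%. It was 4 with the stronger 50% of each list, without PIF4 and PAR2, and 9 with any overlap of the peak with the window. The number with a peak in both gai-YPet lists (7 of 10) was 4 with 500 bp, against 13.6% of all genes, and 4 inside the gene, against 6.23%. With gai-YPet replicate 1 left out it was 10, against 31.9% of all genes, and with replicate 2 left out 7, against 18.8%. It was 5 with the summit outside the gene, 9 with any overlap of the peak with the window and 7 with the stronger 50%. The number with both gai-YPet peaks and no mutant peak (0) was 1 with the stronger 50% of each list (PIF7), and 0 to 1 over the left-out replicates, the genes being PIL1 without gai-YPet replicate 1 and PIF7 without gai-YPet cuc2-1 replicate 1. The number with a Ler peak (1, PIF7) was 0 with summits outside the gene. It was 0 without Ler replicate 1, against 0.215% of all genes, and 1 without Ler replicate 2, against 0.0510%. Under lists of equal length the counts were 6 in gai-YPet cuc2-1 and 5 in gai-YPet, where PIF7 and PAR2 were not among the 5. Merged regions gave 6 in both genotypes. For summits outside the gene, the stronger 50%, equal lengths, control removal, overlap and merged regions, no share of all genes was counted. None was counted either for the pattern of both gai-YPet peaks and no mutant peak with a replicate left out. Whether the counts given without such a share moved more or less than those over all genes was therefore not examined.

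The labels do not tie equal replicate numbers across genotypes. With lists paired by number as a replicate block, 0 genes had a gai-YPet peak and no mutant peak in both pairs; the pairs alone gave 0 for replicate 1, against 1.76% of all genes, and 4 for replicate 2 (PIF3, PIF7, PIL1 and HFR1), against 21.7% of all genes. Percentile deviations of equal-numbered lists correlated at −0.198 over the 2676 genes with a peak in all 4 tagged lists, so a crossed pairing was added after seeing the data, and it gave 0 as well. Depth is unknown, so a missing peak in a shorter list says that none was called there, and not that the protein was absent.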
